A study of Mus musculus with 36 samples.

Results

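The genes described here encode mouse Fc receptors, and they were taken by symbol from the deposited gene table. They are Fcgr1, Fcgr2b, Fcgr3, Fcgr4, Fcer1g and Fcgrt, 6 of 36172 gene entries. The choice was by gene family and not by a threshold on measured values, although earlier results of these data were known when the family was chosen. Polyadenylated RNA was sequenced from hippocampus of Cx3cr1-NuTRAP mice, in which tamoxifen-induced cre recombinase under control of Cx3cr1 switches on a ribosome tag. In translating ribosome affinity purification (TRAP), RNA bound to tagged ribosomes is pulled down from a tissue homogenate, and the input is RNA of the homogenate itself, not pulled down. All animals of every group carried this genotype and were induced. The 36 libraries comprised inputs of 10 mice aged 6 months with early induction (5 females, 5 males; the young group), inputs of 12 mice aged 22 months with early induction (7 females, 5 males; old early) and inputs of 7 mice aged 22 months with late induction (5 females, 2 males; old late). The remaining 7 were TRAP libraries, labelled Pos, of the same 7 old late animals. Cx3cr1 is active in microglia and also in other macrophages of the brain's borders, so the tag is not restricted to microglia by design. Pulldowns from young or early-induced animals were not analysed here, and age differences could therefore be described in input only. The study asked how the age at induction affects pulldown specificity and the detection of age-related changes.

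Fc receptors bind the constant part of antibodies. In the mouse, Fcgr1, Fcgr3 and Fcgr4 encode activating receptors for IgG, which reach the cell surface and signal through the common gamma chain encoded by Fcer1g. Fcgr2b encodes the inhibitory IgG receptor, which recruits phosphatases that dampen signalling when it is engaged beside activating receptors. Fcgrt encodes the neonatal Fc receptor, a relative of MHC class I heavy chains that pairs with B2m and returns internalised IgG and albumin to the cell surface. In the brain, microglia are the main resident cells with activating Fc receptors, whereas the neonatal receptor is also known from endothelium and choroid plexus.

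In the deposited coordinates (build mm10), 4 of the 6 genes lay within 273.8 kb of chromosome 1. Fcgr2b spanned 170960559 to 170976071, Fcgr4 171018926 to 171029761, Fcgr3 171051169 to 171059403 and Fcer1g 171229572 to 171234349. Fcgr1 lay on chromosome 3 (96282909 to 96293969) and Fcgrt on chromosome 7 (45092993 to 45103822). Fcgr4 was on the plus strand and the others on the minus strand.

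Upstream sequences are shown for the 4 IgG receptor genes, so that the activating receptors can be set beside the inhibitory one. The 150 bases before the annotated start were taken from RefSeq (GRCm38.p6), where all 6 genes had an entry. They are written 5′ to 3′ on the gene's strand. Capitals mark matches on either strand to GAGGAAG, a core bound by the myeloid factor PU.1, and to TTCNNNGAA, the gamma-interferon activated sequence bound by STAT factors.
Fcgr1, chr3:96293970-96294119, minus strand: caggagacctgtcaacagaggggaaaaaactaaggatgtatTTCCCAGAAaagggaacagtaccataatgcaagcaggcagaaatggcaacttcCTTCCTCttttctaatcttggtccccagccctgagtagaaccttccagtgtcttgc
Fcgr3, chr1:171059404-171059553, minus strand: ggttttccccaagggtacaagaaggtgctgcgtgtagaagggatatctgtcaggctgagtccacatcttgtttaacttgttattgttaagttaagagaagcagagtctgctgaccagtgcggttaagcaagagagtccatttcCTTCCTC
Fcgr4, chr1:171018776-171018925, plus strand: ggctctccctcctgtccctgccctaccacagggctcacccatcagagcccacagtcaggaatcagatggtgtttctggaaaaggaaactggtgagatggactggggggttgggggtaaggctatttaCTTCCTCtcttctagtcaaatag
Fcgr2b, chr1:170976072-170976221, minus strand: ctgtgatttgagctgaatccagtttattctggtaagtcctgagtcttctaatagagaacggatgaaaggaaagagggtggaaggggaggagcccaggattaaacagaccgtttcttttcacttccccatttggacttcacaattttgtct
Fcgr1, Fcgr3 and Fcgr4 each held GAGGAAG on the opposite strand, at -56 to -50, -7 to -1 and -23 to -17 from the start, and Fcgr1 also held TTCCCAGAA at -109 to -101. Fcgr2b, Fcer1g and Fcgrt held neither set of letters in this window. Among 32851 promoter windows of the same length, 6.85% held the PU.1 core and 4.09% the STAT element. The matches do not overlap and are a description of letters only.

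Fcgr2b and Fcgr3 are close paralogs, and part of their coding sequence cannot be told apart by short reads. Over 741 aligned coding bases, 82.7% were identical between Fcgr2b and Fcgr3, compared with 60.5% over 722 bases between Fcgr2b and Fcgr4 and 62.7% over 740 bases between Fcgr3 and Fcgr4. The longest identical run was 129 bases in exons 3 and 4 of both genes. It is shown because reads inside it could have been divided between the 2 genes in the deposited estimates.
Fcgr2b (coding bases 278 to 406, minus strand, within chr1:170966674-170968081) and Fcgr3 (coding bases 263 to 391, minus strand, within chr1:171054167-171057792): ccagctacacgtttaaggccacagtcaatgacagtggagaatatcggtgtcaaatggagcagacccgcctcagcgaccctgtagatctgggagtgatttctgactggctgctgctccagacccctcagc
Of all 50-base windows of the reference transcripts, 11.4% of Fcgr2b and 12.8% of Fcgr3 were shared with another gene, and 0% of Fcgr1, Fcgr4, Fcer1g and Fcgrt. Between these 2 genes 166 windows were shared, of 3495 in Fcgr2b and 1298 in Fcgr3, and the other shared windows of Fcgr2b matched other genes. Values of Fcgr2b and Fcgr3 are uncertain for this reason, and the shares do not bound the error. Fcgr3 was the more abundant, so reads misassigned from it would weigh more on Fcgr2b. The read length is not given in the sources used here.

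Library totals ranged from 12.9 M to 20.4 M estimated counts, and levels are given on the scaled counts-per-million scale (CPM). Each input library came from its own animal, so p-values measure the spread between animals. The driver gene Cx3cr1 had a mean of 25.04 ± 2.01 CPM in the young group (SD, n = 10) and 688 ± 134 CPM in TRAP (SD, n = 7), and all 24 genes of a microglia marker list were higher in TRAP than in input. The summed level of 8 choroid plexus genes split the inputs. It was 48.0 to 195 CPM in 4 young, 8 old early and 2 old late libraries, and 1712 to 4183 CPM in the other 6, 4 and 5. Old early replicate 5, a male, stood apart with the highest choroid plexus sum (4183 CPM) and a summed haemoglobin-gene level of 2273 CPM, against 130 to 719 CPM in the other inputs. Results that move with these libraries are given with and without them.

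In whole hippocampus the Fc receptor transcripts were scarce, with the lowest levels in young inputs and the highest in TRAP. Fcgr3, the activating low-affinity receptor, was listed at 6.30, 10.8 and 14.2 CPM (lowest, median, highest) in young inputs and at 15.6, 17.8 and 22.4 CPM in old early inputs. In old late inputs it ranged from 15.2 to 27.7 CPM with a median of 22.0. All 12 old early and all 7 old late libraries lay above all 10 young ones, and the old groups overlapped.

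Fcgr2b, the inhibitory receptor, showed the same separation by age. It was listed at 1.39, 2.53 and 2.82 CPM in young, 3.02, 4.33 and 5.65 CPM in old early and 3.73, 5.94 and 6.91 CPM in old late inputs. Every old library again lay above every young one. The share of all genes separated by age in this manner was not counted. By the edgeR test given below, 25.6% of tested genes were called in old early and 34.5% in old late against young inputs.

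Fcgr1, the high-affinity receptor, overlapped between ages. Its lowest, median and highest values were 1.94, 2.78 and 4.74 CPM in young, 3.88, 4.81 and 6.72 CPM in old early and 4.09, 5.88 and 8.64 CPM in old late inputs. Of the old libraries, 6 of 12 and 6 of 7 lay above the highest young value, which belonged to 1 female. Fcer1g, the shared signalling chain, was listed at 4.09, 4.75 and 6.59 CPM in young, 6.29, 8.74 and 11.9 CPM in old early and 6.56, 9.19 and 15.5 CPM in old late inputs. Here 11 of 12 and 6 of 7 old libraries exceeded all young ones.

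Fcgr4 was close to the limit of detection. It had 0 to 4.1 counts per young library and 0 to 12 per old early library, with 0 counts in 3 libraries of each group, and 4 to 12 counts per old late library. Its means were 0.105 ± 0.0811 CPM (SD, n = 10), 0.270 ± 0.260 CPM (SD, n = 12) and 0.404 ± 0.139 CPM (SD, n = 7). A count of 3 in 1 library corresponds to about 0.188 CPM, so the young values were mostly at or under what a single library can resolve.

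Fcgrt differed least between ages. It was listed at 13.2, 16.3 and 18.9 CPM in young, 14.1, 17.9 and 36.1 CPM in old early and 17.8, 21.8 and 22.5 CPM in old late inputs. The highest value came from old early replicate 5, and the next highest of that group was 23.7 CPM.

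In TRAP the members reached far higher values, with no overlap with any input group for any of the 6. How many of all genes separate in this way was not counted, and 30.4% of tested genes were called higher in TRAP by the edgeR test given below. Fcgr3 ranged from 370 to 656 CPM with a median of 484, Fcer1g from 183 to 382 CPM with a median of 269, and Fcgr1 from 100.4 to 192 CPM with a median of 116. Fcgr2b ranged from 54.0 to 129 CPM with a median of 85.4 and Fcgrt from 54.5 to 76.5 CPM with a median of 57.4. Fcgr4 remained low, at 3.17 to 14.99 CPM with a median of 6.16 and 40 to 247 counts per library.

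**Figure D1:**
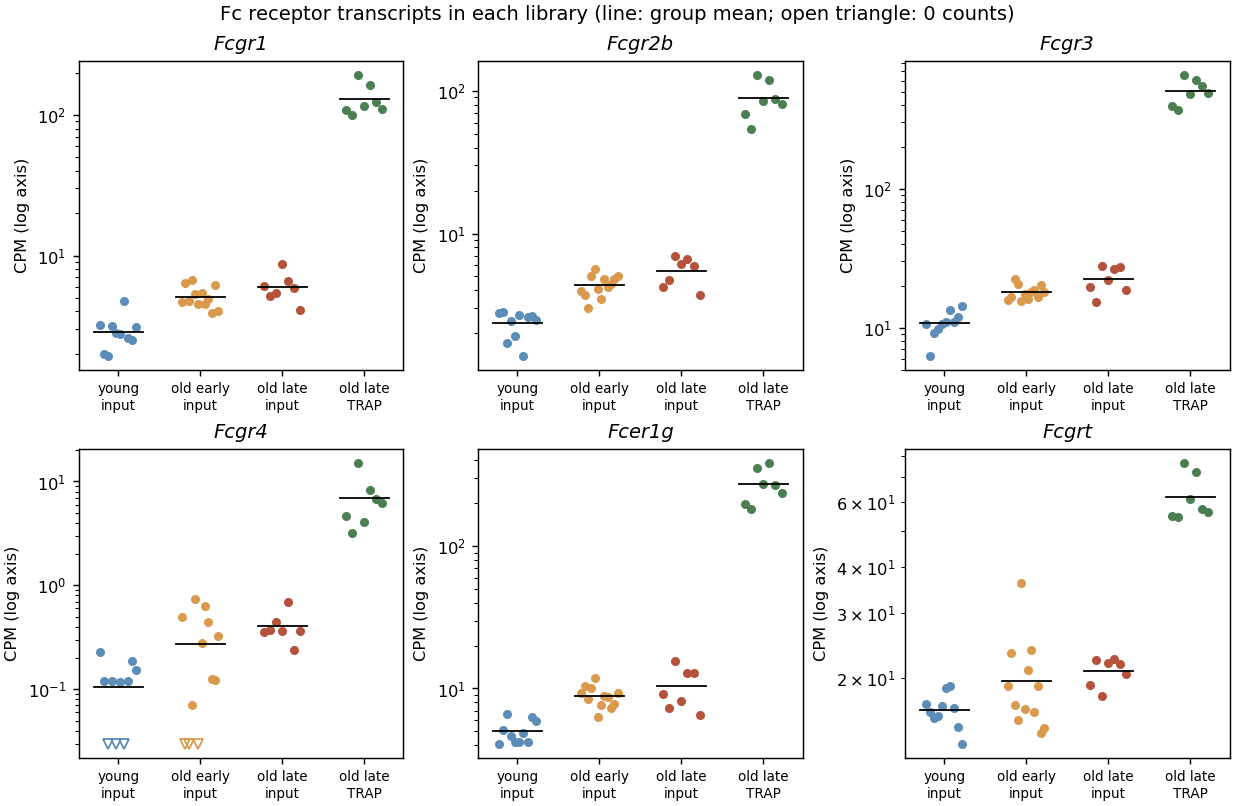
Level of each Fc receptor gene in each library, in CPM on a log axis that differs between panels, with points for libraries, lines for group means and open triangles for libraries with 0 counts. TRAP libraries sit above every input for all 6 genes, and old inputs sit above all young inputs for Fcgr2b and Fcgr3.

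Levels of different genes were compared per kilobase of exon. In TRAP, Fcgr3 (375 ± 78.8 CPM per kb) and Fcer1g (370 ± 103 CPM per kb; SD, n = 7 here and next) headed the order and did not differ beyond their spread. Fcgr2b (57.7 ± 17.2), Fcgr1 (50.4 ± 13.03) and Fcgrt (35.4 ± 5.09 CPM per kb) followed, with Fcgr2b and Fcgr1 within each other's spread, and Fcgr4 was last at 5.51 ± 3.18 CPM per kb. The place of Fcgr2b depended on its length. Counting the annotated 3′ end that lies beyond the gene's deposited bounds, it was 23.4 CPM per kb and ranked below Fcgrt.

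In young inputs the order differed, with Fcgrt at 9.32 ± 0.990, Fcgr3 at 8.02 ± 1.64 and Fcer1g at 6.87 ± 1.29 CPM per kb (SD, n = 10). The spreads of neighbours in that order overlapped. In old late inputs Fcgr3 led at 16.6 ± 3.60 CPM per kb, followed by Fcer1g at 14.1 ± 4.62 and Fcgrt at 11.9 ± 1.04 (SD, n = 7), again with overlapping spreads between neighbours.

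The pulldown comparison asked how strongly each receptor transcript followed tagged cells. Fcer1g was 25.7-fold higher in TRAP than in input, Fcgr3 22.3-fold, Fcgr1 21.6-fold and Fcgr2b 16.0-fold, whereas Fcgrt was 2.95-fold higher. By edgeR's quasi-likelihood test with Benjamini-Hochberg adjustment over 14596 genes, all 6 members were called higher, where 59.2% of all genes were called and 30.4% were called higher. This fit did not use the pairing of TRAP and input libraries by animal. With the animal as block all 6 kept their calls. Fcgr4 passed the filter on low counts through its TRAP libraries alone and had to differ.

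The log2 fold changes were 4.68 for Fcer1g (SE 0.172, adjusted p = 3.46e-13), 4.48 for Fcgr3 (SE 0.106, adjusted p = 3.82e-15), 4.43 for Fcgr1 (SE 0.160, adjusted p = 2.81e-13) and 4.00 for Fcgr2b (SE 0.147, adjusted p = 3.53e-13). Fcgr4 had 4.03 (SE 0.320) and Fcgrt 1.56 (SE 0.0845, adjusted p = 6.52e-11). By size of change, Fcer1g ranked 11, Fcgr3 28 and Fcgr1 35 among all genes tested, and Fcgrt ranked 1013. The median of the 6 members was 4.23, beside 4.24 for the 24 microglia genes and -0.02 for all genes tested. Under scaling by upper quartile or by library size alone the median of all genes moved to -0.16 and -0.13, and the members kept their calls and direction. The split of calls over all genes moved from 4442 higher of 8640 to 3280 of 9652 and 3564 of 9312.

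Per animal, the log2 ratio of TRAP to input of Fcgr3 lay in a narrow band, with 4.31, 4.59, 4.56, 4.44, 4.53, 4.32 and 4.68 in animals 1 to 7. That of Fcgr1 was wider, at 4.12, 4.26, 5.12, 3.73, 4.59, 4.37 and 4.71. Fcgrt gave 1.53, 1.28, 2.10, 1.48, 1.68, 1.39 and 1.45, so that its highest animal lay below the lowest animal of every other member.

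Of the 15 pairs of members, 8 differed in enrichment by an exact sign-flip permutation test over the 7 animals (two-sided; adjusted p = 0.0293 for each of the 8, and the unadjusted p of 0.0156 is the smallest that 7 animals can give). The count of 8 includes Fcgr4 with Fcgr1 and Fcgr4 with Fcgrt, which are given as a description only. Fcgrt was below each of the other 5, by 2.04 (Fcgr4) to 3.15 (Fcer1g) on the log2 scale in 7 of 7 animals. The value of 2.04 rests on 4 to 12 input counts of Fcgr4 and depends on the prior count, so it is a description only. The inhibitory receptor Fcgr2b differed from the activating Fcgr3 by -0.51 ± 0.29 (SD, n = 7) and from Fcer1g by -0.74 ± 0.36, lower in 7 of 7 animals each. Adjusted within a smaller family of 4 receptor ratios, the same difference between Fcgr3 and Fcgr2b missed the threshold (exact permutation test, adjusted p = 0.0625). Fcgr1 was above Fcgr4 by 0.81 ± 0.48, a call that was lost with a prior count of 0.5 (difference 0.56, exact permutation test, adjusted p = 0.0703), since Fcgr4 rests on 4 to 12 input counts.

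Fcgr1 exceeded Fcgr2b in 6 of 7 animals by 0.44 ± 0.34, which missed the threshold after adjustment (exact permutation test, adjusted p = 0.0521). Fcgr1 and Fcgr3 differed by -0.07 ± 0.39, with Fcgr1 higher in 4 of 7 animals (exact permutation test, adjusted p = 0.625). With 6 animals the smallest p is 0.03125, and leaving out 1 animal left 0 pairs past the threshold, except 11 without animal 3.

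The members were set against the microglia list, whose mean log2 CPM rose by 4.09 ± 0.14 (SD, n = 7) from input to TRAP. Fcer1g exceeded it by 0.62 ± 0.30 and Fcgr3 by 0.40 ± 0.10, and Fcgrt differed from it by -2.53 ± 0.19, each in 7 of 7 animals (exact sign-flip permutation test, adjusted p = 0.03125 over the 6 members). Fcgr1 was above the list in 6 of 7 animals (0.33 ± 0.36, exact permutation test, adjusted p = 0.0938). Fcgr2b (-0.11 ± 0.27) and Fcgr4 (-0.49 ± 0.65) were above it in 2 of 7 animals each and missed the threshold.

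Markers of other cell types moved in the same pulldown, and their part in the enrichment of the members was not tested. All 8 border macrophage genes were called higher, with a summed level of 23.4 to 54.5 CPM in old late input and 388 to 652 CPM in TRAP. Of 11 endothelial genes 10 were called higher, from sums of 96.5 to 142 CPM to 210 to 346 CPM, and the mean log2 ratio of that list was 1.03 ± 0.27 (SD, n = 7), beside 1.56 ± 0.27 for Fcgrt. The 8 choroid plexus genes summed to 49.3 to 3527 CPM in old late input and 26.2 to 1244 CPM in TRAP, where 0 were called higher and 6 lower. B cells also carry Fcgr2b, and of 6 B cell genes only Cd79b was tested and called higher (3.91), while Ms4a1 had 0 counts in every TRAP library. The 6 genes summed to 0.239 to 1.03 CPM in old late input and 4.19 to 5.46 CPM in TRAP. Cd79b thus passed the filter on low counts through TRAP and had to differ. Of 12 monocyte and neutrophil genes 3 were tested and called, with Ccr2 at 1.33 ± 0.290 CPM in TRAP and Ly6g at 0 in all libraries. Ccr2 (2 to 8 input counts per library, 14.0 to 25 in TRAP) likewise passed the filter through TRAP and had to differ. None of the 4 mast cell genes passed the filter.

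**Figure D2:**
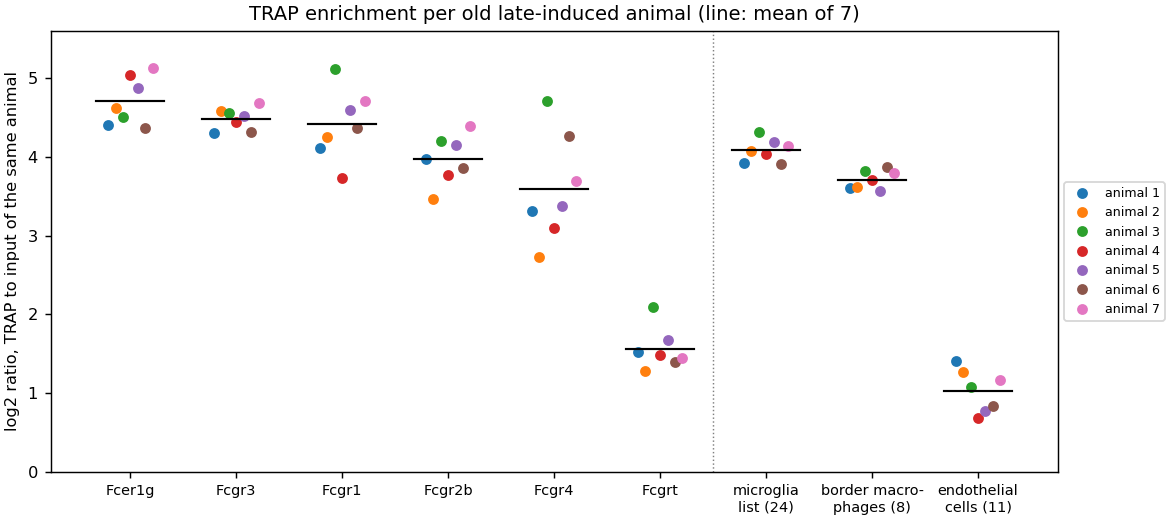
Log2 ratio of TRAP to input for each of the 7 old late animals (coloured points) and their mean (line), for the 6 members and the mean of 3 marker lists. Fcgrt lies near 1.56 and the other 5 members between 3.60 and 4.71 on average, around the microglia list at 4.09.

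The age comparison asked which receptor transcripts were higher at 22 than at 6 months in whole hippocampus. With early induction, Fcgr2b was 1.85-fold higher, Fcgr1 1.78-fold, Fcer1g 1.77-fold and Fcgr3 1.66-fold, and Fcgrt, at 1.21-fold, was not called. With late induction all 5 tested members rose, Fcgr2b 2.31-fold, Fcgr1 and Fcer1g 2.08-fold each, Fcgr3 2.01-fold and Fcgrt 1.31-fold. Fcgr4 did not pass the filter on low counts and was not tested in input. The comparisons share the 10 young libraries and are given side by side. All young animals were induced early, so old late and young inputs differ in both age and induction, which cannot be told apart there. In bulk RNA, more receptor-bearing cells and more RNA per cell cannot be told apart.

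Against young, 4 of the 5 tested members were called in old early inputs, all higher, where 25.6% of 14948 genes were called, 1940 of the 3826 called genes higher. In old late inputs 5 of 5 were called higher, where 34.5% of genes were called, 2536 of 5151 higher. Log2 fold changes in old early inputs were 0.89 for Fcgr2b (SE 0.133, adjusted p = 1.38e-05), 0.83 for Fcgr1 (SE 0.139, adjusted p = 5.58e-05), 0.82 for Fcer1g (SE 0.137, adjusted p = 5.13e-05) and 0.73 for Fcgr3 (SE 0.0936, adjusted p = 1.38e-06). In old late inputs they were 1.21 for Fcgr2b (SE 0.150, adjusted p = 5.14e-07), 1.06 for Fcgr1 (SE 0.156, adjusted p = 7.13e-06), 1.06 for Fcer1g (SE 0.155, adjusted p = 6.54e-06) and 1.01 for Fcgr3 (SE 0.106, adjusted p = 3.26e-08). The median of the tested members was 0.82 and 1.06, beside 0.45 and 0.63 for the 24 microglia genes and 0.01 for all genes in each comparison. Single microglia genes rose as much as the members, with Tyrobp at 0.95 (SE 0.0859) and 1.19 (SE 0.0968), Ctss at 0.74 (SE 0.0718) and 1.01 (SE 0.0815) and C1qb at 0.71 (SE 0.0744) and 1.00 (SE 0.0845) in old early and old late inputs.

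Markers of other cells were read in the same inputs, and their part in these differences was not tested. Of 8 border macrophage genes 0 were called in old early inputs, and 1 higher and 1 lower in old late inputs. Of 12 monocyte and neutrophil genes 4 were tested and 1 called higher in each comparison, with sums of 1.93 to 4.38 CPM in young, 2.12 to 24.5 in old early and 4.02 to 6.71 in old late inputs. None of the 6 B cell genes passed the filter, and their sum was at most 1.49 CPM. Haemoglobin and erythroid genes were called higher for 2 and 4 of 4. Of 11 endothelial genes 2 and 3 were called higher, with sums of 76.2 to 118 CPM in young, 72.1 to 150 in old early and 96.5 to 142 in old late inputs. Oligodendrocyte genes were called higher for 7 and 8 of 8 and astrocyte genes for 3 of 8 in each comparison.

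Among the 14 input libraries with a low choroid plexus sum, a set chosen after seeing the data, 3 of 5 members were called in old early inputs, where 8.15% of 15141 genes were called. Fcgr2b (0.83), Fcgr1 (0.85) and Fcgr3 (0.65) kept their calls, and Fcer1g had a log2 fold change of 0.44 that missed the threshold (edgeR adjusted p = 0.152; 4 young and 8 old early libraries). In young inputs Fcer1g was 5.88 ± 0.877 CPM in the 4 libraries with a low choroid plexus sum and 4.46 ± 0.419 CPM in the other 6. In old late inputs all 5 tested members were called in the low set as well, where 12.4% of genes were called, with 2 old late libraries.

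Without the filter on low counts, Fcgr4 had fitted log2 fold changes of 1.33 in old early (edgeR adjusted p = 0.112) and 1.93 in old late inputs (edgeR adjusted p = 0.0211), values that depend on the prior count of the fit. In CPM all 7 old late libraries lay above all young libraries, and 6 of 12 old early libraries did. The lowest old late library had 4 counts (0.238 CPM) and the highest young library 4.1 counts (0.231 CPM). In counts the old late and young ranges were therefore not separate.

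**Figure D3:**
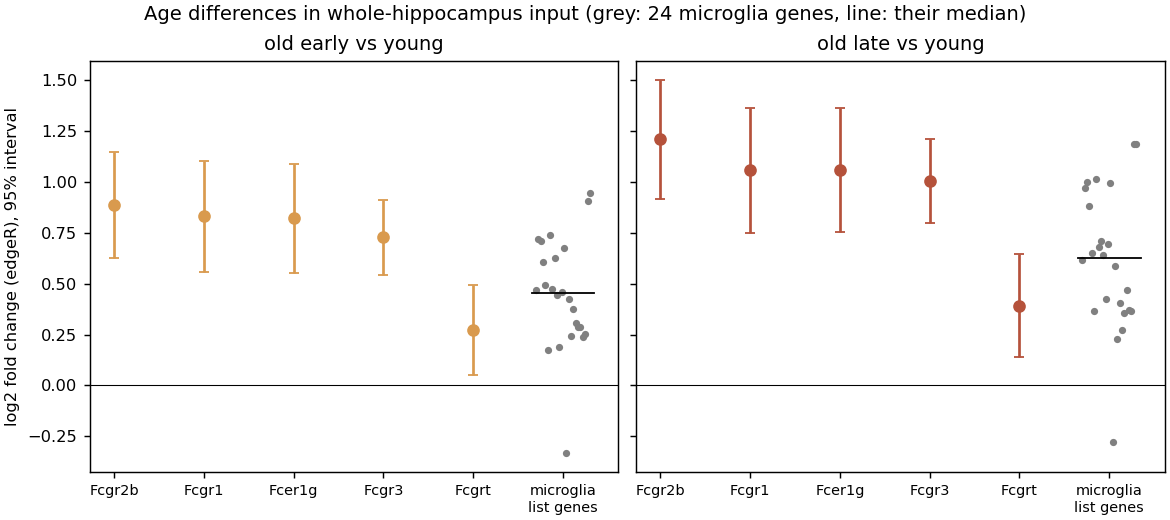
Log2 fold change from edgeR of old early (left) and old late (right) against young input for the 5 tested members. Bars are 95% normal intervals with an SE derived from the F statistic. Single microglia genes stand beside them (grey points, line at their median). Fcgr2b, Fcgr1, Fcer1g and Fcgr3 lie at 0.73 to 0.89 on the left and 1.01 to 1.21 on the right, and Fcgrt lies at 0.27 and 0.39.

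Microglial transcripts as a group were higher with age, so each member was also expressed relative to the mean log2 CPM of the microglia list in the same library. In the list, 22 of 24 genes were called higher and 1, Mertk, lower in old early inputs, and 23 of 24 higher and Mertk lower in old late inputs. Its mean was 4.43 ± 0.0788 log2 CPM in young (SD, n = 10), 4.87 ± 0.0928 in old early (SD, n = 12) and 5.05 ± 0.189 in old late inputs (SD, n = 7).

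Of 18 comparisons of members with the list, 10 differed by two-sided permutation tests (exact enumeration for the 7 old late libraries). The test was not run over all genes, so the count has no background share beside it. As the list rose with age, a gene that did not change would lie lower relative to it in old inputs. The list mixes genes that rose as much as the members with homeostatic genes that rose less. Relative to its mean, Fcgr2b was higher by 0.43 in old early (permutation test, adjusted p = 0.0113) and by 0.56 in old late inputs (exact permutation test, adjusted p = 0.00833). Fcgr3 was higher by 0.31 and 0.43 (permutation tests, exact for old late, adjusted p = 0.00747 each), Fcgr1 by 0.37 and 0.41 (adjusted p = 0.0264 and 0.0360) and Fcer1g by 0.36 and 0.37 (adjusted p = 0.0113 and 0.0360). Fcgrt went the other way, with -0.22 in old early (permutation test, adjusted p = 0.186) and -0.26 in old late inputs (exact permutation test, adjusted p = 0.0491).

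The count of 10 includes Fcgr4 in old late inputs, whose difference was set by the prior count and is given as a description only. It was 0.64 with a prior count of 2 and 1.37 with 0.5, on 0 to 4.1 counts per young and 4 to 12 per old late library. The call for Fcgrt was lost when the median over the list was used (-0.06) or the list was restricted to 12 homeostatic genes (-0.10). Among the libraries with a low choroid plexus sum 0 of 18 comparisons passed the threshold, where old late could not pass against young with 2 libraries. There the relative difference of Fcer1g in old early inputs was 0.08 and those of Fcgr1, Fcgr2b and Fcgr3 were 0.43, 0.44 and 0.31.

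The balance of activating and inhibitory receptors was described as each gene's share of the 4 IgG receptor genes per kilobase. Fcgr3 made up 74.3% ± 4.68 in young (SD, n = 10), 72.7% ± 3.72 in old early (SD, n = 12), 72.8% ± 3.55 in old late inputs (SD, n = 7) and 77.0% ± 1.68 in TRAP (SD, n = 7). Inhibitory Fcgr2b made up 14.6% ± 4.49, 15.4% ± 2.59 and 15.5% ± 1.82 in the 3 input groups and 11.7% ± 1.01 in TRAP. Its share in TRAP, 9.96% to 12.9%, lay below that of every old late input, 13.3% to 18.4%. Fcgr1 made up 10.3% to 10.7% on average in all 4 groups, and Fcgr4 0.786% to 1.44%. These shares use the exon length inside the deposited gene bounds. With the full annotated length of Fcgr2b its share was 6.55% ± 2.24, 6.88% ± 1.27 and 6.94% ± 0.899 in the 3 input groups and 5.09% ± 0.474 in TRAP, where 4.30% to 5.67% again lay below the old late inputs at 5.85% to 8.41%.

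**Figure D4:**
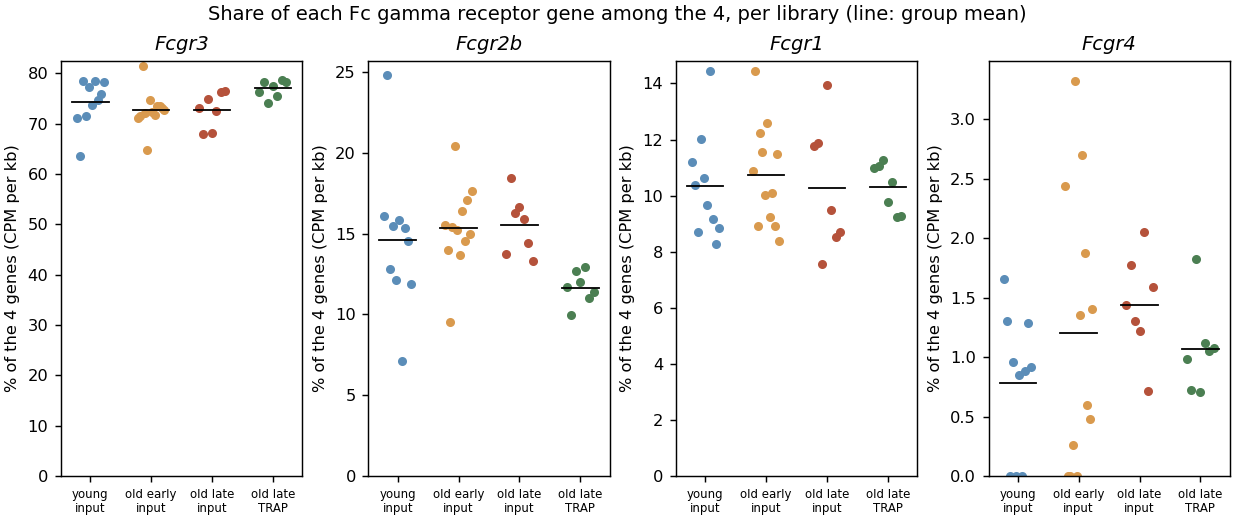
Share of each IgG receptor gene among Fcgr1, Fcgr2b, Fcgr3 and Fcgr4 in each library, computed from CPM per kilobase, with lines for group means. Fcgr3 holds 72.7% to 77.0% on average in every group, and the Fcgr2b share is 11.7% in TRAP and 14.6% to 15.5% in the inputs (5.09% and 6.55% to 6.94% with its full annotated length).

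Ratios between receptors within a library were tested by age and induction. On the log2 scale of CPM, Fcgr3 to Fcgr2b averaged 2.15 ± 0.52 in young (SD, n = 10), 2.03 ± 0.32 in old early (SD, n = 12) and 2.01 ± 0.22 in old late inputs (SD, n = 7). Of 12 comparisons of 4 ratios, 0 passed the threshold by permutation test (lowest adjusted p = 0.888), and 0 had an unadjusted p under 0.05. The old early difference in Fcgr3 to Fcgr2b was -0.12, with a 95% interval of -0.48 to 0.25, and the old late difference was -0.13 (-0.49 to 0.23). For Fcer1g to Fcgr3 the differences were 0.05 (-0.26 to 0.35) and -0.06 (-0.37 to 0.24). Changes of these ratios inside the intervals could not be resolved with these animals.

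Induction age was compared between old late and old early inputs. By edgeR 0 of the 5 tested members were called, where 0.0334% of genes were called. Every tested member had a positive estimate, from 0.12 for Fcgrt to 0.32 for Fcgr2b (95% interval 0.05 to 0.59), and 2 of 5, Fcgr2b and Fcgr3, had an unadjusted p under 0.05, as did 1736 of 14948 genes (11.6%). For Fcgr3 the difference was 0.28 (SE 0.0994, adjusted p = 0.268). DESeq2 and limma voom also called 0 members.

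Between males and females 0 of 5 tested members were called by edgeR, DESeq2 or limma voom, where 0.174% of genes were called by edgeR. Fcgr3 was lower in males by -0.28 (SE 0.0826, adjusted p = 0.234), the only member with an unadjusted p under 0.05. In old early inputs it was 19.3 ± 1.95 CPM in 7 females and 16.3 ± 0.778 CPM in 5 males, and in young inputs 11.6 ± 1.14 CPM in 5 females and 10.02 ± 2.86 CPM in 5 males. The age difference itself did not differ detectably by sex for any tested member, with 0 of 5 called in the interaction, where 0% of 14547 genes were called by edgeR and 2272 had an unadjusted p under 0.05. DESeq2 called 42 genes, none of them members. Fcgrt had the largest interaction estimate of the members, 0.58 (SE 0.219, adjusted p = 0.238), and was the only one with an unadjusted p under 0.05. The estimate was 0.37 without old early replicate 5 (edgeR adjusted p = 0.445) and 0.13 among libraries with a low choroid plexus sum (edgeR adjusted p = 0.9997).

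Fcgrt levels varied with the choroid plexus content of the input. In each input group its mean was higher in libraries with a high choroid plexus sum, at 17.3 ± 1.22 CPM in 6 young libraries against 14.8 ± 1.13 in 4, and 26.02 ± 6.81 CPM in 4 old early libraries against 16.4 ± 1.83 in 8. In old late inputs it was 21.2 ± 1.46 CPM in 5 against 19.9 ± 2.91 in 2. The ranges of the subsets did not overlap in young (13.2 to 15.7 against 16.1 to 18.9 CPM) or old early inputs (14.1 to 19.02 against 20.9 to 36.1 CPM), and overlapped in old late inputs.

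When the log2 choroid plexus sum was added to the fit of the 29 inputs, a step chosen after seeing the data, Fcgrt rose by 0.07 on the log2 scale per doubling of that sum (SE 0.0146, edgeR adjusted p = 8.54e-04). The term was called for 11.6% of 14948 genes and for 0 of the other 4 tested members, whose estimates were -0.02 to 8e-04. With this term Fcgrt was called in old early inputs, at 0.33 (edgeR adjusted p = 0.00435; 31.1% of genes called), and in old late inputs, at 0.34 (edgeR adjusted p = 0.00697; 35.2% of genes called). Restricted to the libraries with low sums, Fcgrt had 0.21 in old early (edgeR adjusted p = 0.259) and 0.52 in old late inputs (edgeR adjusted p = 0.0254). Without old early replicate 5 the old early value was 0.16 (edgeR adjusted p = 0.197). With females only the old early value was 0.0056 (edgeR adjusted p = 0.986), with means of 17.1 CPM in 5 young and 7 old early females. Of the 4 old early libraries with high sums 3 were male, and Fcgrt averaged 23.2 ± 7.65 CPM in 5 males and 17.1 ± 3.33 CPM in 7 females of that group.

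**Figure D5:**
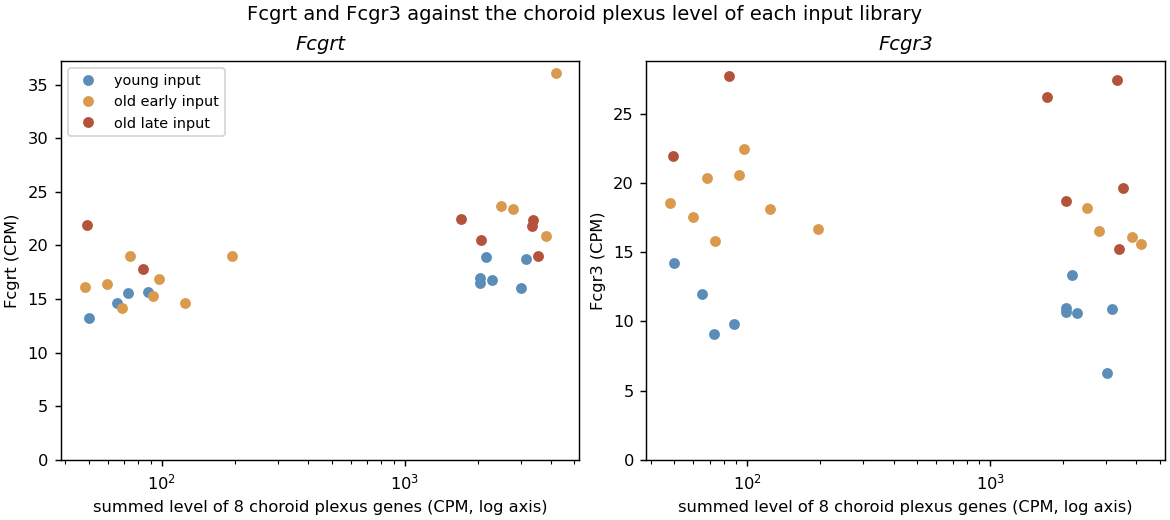
Fcgrt (left) and Fcgr3 (right) in CPM against the summed CPM of 8 choroid plexus genes (log axis) in each of the 29 inputs, coloured by group. Libraries fall on either side of 1000 CPM, the mean of Fcgrt is higher on the right within each colour, and the highest point is old early replicate 5 at 36.1 CPM.

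Components of the pathway downstream were described as lists of measured genes. Of 21 tested activating signalling genes, 20 were called higher in TRAP, among them the actin regulator Was (4.47, SE 0.114). The list's median was 4.02, beside -0.02 over all genes. The kinase gene Fgr, among the 20, had 0 to 20 counts per old late input and 35 to 422 per TRAP library. It passed the filter on low counts through TRAP and had to differ there. With age 12 of 21 were called higher in old early inputs (median 0.28), and 11 higher and 1 lower, Pik3cd, in old late inputs (median 0.43), where 25.6% and 34.5% of all genes were called in either direction and the median over all genes was 0.01.

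By age, Fgr had 0 to 3 counts per library in young, 2 to 24 in old early and 0 to 20 in old late inputs. It passed the filter on low counts through the old libraries alone, so that it had to differ (it is among the 12 and 11 counted). Set against a floor of 3 counts per young library, its mean was at least 3.07-fold higher in old early and at least 3.62-fold higher in old late inputs. Lat2, an adaptor that follows immunoreceptor kinases, rose by 0.97 (SE 0.140) and 1.27 (SE 0.156). Syk, the kinase that docks on the phosphorylated common gamma chain, had 0.09 (edgeR adjusted p = 0.571) and 0.17 (edgeR adjusted p = 0.310) with age, although it was 3.74 higher in TRAP (SE 0.109).

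Inhibitory signalling genes were divided. In TRAP 8 of 10 were called higher, led by the phosphatase genes Ptpn6 (SHP-1; 4.20, SE 0.175) and Inpp5d (SHIP1; 4.08, SE 0.0985). With age Ptpn6 rose by 0.80 (SE 0.117) and 1.07 (SE 0.132), whereas the adaptor Dok3 fell by 0.88 (SE 0.150) and 0.74 (SE 0.177). Inpp5d, the phosphatase recruited by the inhibitory receptor, had 0.01 in old early (edgeR adjusted p = 0.910) and rose by 0.25 in old late inputs (edgeR adjusted p = 0.0162). Counts were 3 higher and 2 lower of 10 in old early, and 4 higher and 3 lower in old late inputs, with medians of 0.03 and 0.11.

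Other genes of the Fc receptor family were mostly too scarce to test. Fcrls, a microglial Fc receptor-like gene, was 4.29 higher in TRAP (SE 0.106), had 0.09 in old early inputs (edgeR adjusted p = 0.362) and rose by 0.34 in old late inputs (SE 0.0817). Trim21, a cytosolic antibody receptor, was 1.45 higher in TRAP (SE 0.193). Fcrl1 had 0 to 14 counts per old late input and 75 to 175 per TRAP library, and passed the filter through TRAP, so that it had to differ. Of 14 genes of this list 5 were tested in TRAP, with 3 called higher (Fcrl1 among them), and 4 in input, with 0 called in old early and 1 in old late. Fcer1a and Ms4a2, which complete the IgE receptor with Fcer1g, had 0 counts in all 36 libraries. B2m, the partner of Fcgrt, was 3.33 higher in TRAP (SE 0.181) and rose by 0.50 (SE 0.0832) in old early and 0.80 (SE 0.0951) in old late inputs.

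The antibody chain genes Ighm, Ighg1, Ighg2b, Ighg2c, Igkc and Iglc1 were listed at 0 in all 36 libraries and give no level here. Igj, the joining chain of polymeric antibodies, was lower in TRAP by -1.98 (SE 0.565), had 1.37 in old early inputs (edgeR adjusted p = 0.0609) and rose by 2.05 in old late inputs (SE 0.597). It had 0 to 13 counts per young and 9 to 79 per old late library, where 1 library reached 4.53 CPM beside a median of 0.852. Its median count was 6 in young inputs and 4 in TRAP, under the filter's minimum of 10. Igj was thus kept with the help of the libraries where it is higher, and these differences are a description only. Among receptors other than those for IgG that use Fcer1g, 4 of 8 were tested in TRAP and 3 called higher, Lilra5, Clec4n and Clec4d. Clec4n had 2 to 7 input counts per library and 24 to 81 in TRAP, Clec4d 0 to 6 against 12 to 47.7. Lilra5 had 1 to 14.8 against 68.6 to 189. All of these passed the filter through TRAP and had to differ. In input 1 of 8 was tested, Oscar, which fell by 0.48 (SE 0.175) and 0.67 (SE 0.209).

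The genes whose log2 CPM most resembled each member across the 29 inputs were listed by Pearson r among 13048 genes, as a description over libraries that share their group structure. Fcgr3 was nearest to Ctss (0.93), C1qb (0.93) and Mpeg1 (0.92), and Fcer1g to C1qa (0.90), C1qc (0.90) and Laptm5 (0.89). Fcgr1 was nearest to Cyba (0.87), Ctss (0.86) and Lyz2 (0.86), and Fcgr2b to Lag3 (0.90), Itgax (0.89) and Lyz1 (0.89). Fcgrt was nearest to Odc1 (0.91), Mdk (0.88) and Gpx1 (0.87), none of them on the microglia list. After each group's mean was removed, r was 0.70 between Fcgr3 and Ctss and 0.88 between Fcgrt and Odc1. Fcgr4, sparse in input, was nearest to Psmb3 (0.74), Suclg2 (0.74) and Unc93b1 (0.68).

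Between members, the correlation over all inputs was highest for Fcgr1 with Fcgr3 (0.85) and was 0.80 for Fcer1g with both Fcgr2b and Fcgr3. With group means removed these were 0.47, 0.34 and 0.35, and Fcgr2b with Fcgr3 was 0.08. Fcgrt with Fcgr3 was 0.28 over all inputs and -0.28 with group means removed.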

How the data were processed

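Polyadenylated RNA of 36 mouse hippocampus libraries was analysed from a table of estimated counts that the authors deposited, marked raw per the file headers. Of nonzero values 77.25% were not whole (tolerance 1e-06). The build mm10 and DESeq2 are named per the submitters' processing notes, and the aligner, counting tool and strand handling are not given in the sources used here. Reads divided between overlapping or paralogous genes, such as Fcgr2b and Fcgr3, make their values uncertain.

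Counts were rounded and tested with edgeR 4.0.16 in R 4.3.3 (filterByExpr by group with a minimum count of 10, TMM, glmQLFit, glmQLFTest), with Benjamini-Hochberg adjustment over all genes tested and a threshold of 0.05. TRAP against input was fitted on 14 libraries with sex as covariate, age and induction on 29 inputs with group and sex, and the interaction on 22 early-induced inputs. CPM used TMM over all 36 libraries, log2 CPM a prior count of 2, and CPM per kilobase the GENCODE exon length inside the deposited gene bounds. The labels' animal numbers paired TRAP and input libraries. Deviations of the 7 matched pairs from their group means correlated at 0.308 to 0.470 across genes, against a median of -0.086 between animals. No libraries agreed within sampling noise (chi-square per degree of freedom 3.66 to 47.4). Permutation tests used scipy 1.17.1, exact below 10 libraries per group and otherwise with 100000 resamples. The scripts were tested on simulated data.

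Lists held 184 genes, of which 180 were matched, 6 by identifier. Named genes were the members, Cx3cr1, the 3 largest called changes per pathway list and contrast, the 3 genes nearest to each member, and markers, some of which are not reported here. Syk, Pik3cd, Fcer1a, Ms4a2 and the antibody chain genes, and Fcrls and Inpp5d in comparisons where they were not called, were named after their values were seen. The members and lists were chosen with earlier results of these data known. Alternatives were other scalings, filters, tools (DESeq2 1.42.0, limma 3.58.1), covariates and priors, females only, an animal block and each library left out.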

Additional observations from a re-analysis of the deposited data

Results flagged for a closer look

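Of 24 sets of values checked for a single distant library (member levels in groups of 7 or 10 libraries and enrichment over 7 animals), 1 had such a library, where chance gives about 1.2. In young inputs Fcgr1 was 4.74 CPM in replicate 7, a female, and the next highest value was 3.23 CPM. Without it the log2 fold change of Fcgr1 was 0.94 in old early and 1.18 in old late inputs, and both kept their calls.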

How the results depend on the processing

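Calls of Fcgr1, Fcgr2b and Fcgr3 with age, and of all 6 members in TRAP, kept their side of the threshold under every alternative run, with log2 fold changes of 0.65 to 0.99 in old early and 0.94 to 1.39 in old late inputs. In the TRAP counts given here Fcgr4 is no support, since it passed the filter on low counts through TRAP alone and had to differ. With the animal as replicate block 6 of 6 members and 9330 genes were called in TRAP, and the block changed no call of a member. Leaving out 1 library gave 6 members in TRAP, 4 to 5 in old early (5 without old early replicate 11, where Fcgrt had 0.30, edgeR adjusted p = 0.0483), 5 in old late and 0 in the induction, sex and interaction contrasts. With females only Fcgrt lost its call in old late inputs (0.30, edgeR adjusted p = 0.0859) and had 0.0056 in old early inputs. Females only (5 animals, smallest exact p 0.0625) left 0 pairs of members, 0 members against the microglia list in TRAP and 0 of 18 by age, by construction of fewer animals for the first 2. In females the relative differences by age were 0.50 and 0.69 for Fcgr2b, 0.26 and 0.40 for Fcgr3, 0.38 and 0.50 for Fcer1g and 0.21 and 0.31 for Fcgr1 in old early and old late inputs (exact permutation tests, lowest adjusted p = 0.05). The low choroid plexus libraries, chosen after seeing the data, also left 0 of 18. Leaving out 1 library gave 0 to 11 of 15 pairs (11 without animal 3), 0 to 4 of 6 members against the list in TRAP (4 without animal 4), 6 to 11 of 18 by age, 0 of 12 receptor ratios by age and 0 of 4 in TRAP. By age the count fell from 10 to 6 without young replicate 5, old late replicate 1 or old late replicate 5. Over all genes, females only called 1198 in old early, 2787 in old late and 182 by induction, DESeq2 called 58 by induction, 64 by sex and 42 in the interaction, and the interaction had 523 calls without old early replicate 6. Induction calls were 0 with only the 2 groups compared, 101 among the low choroid plexus libraries and 164 without old early replicate 5. The cause was not tested. Depth limits Fcgr4, which had at most 12 counts per input library.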
